A study of Mus musculus with 6 samples.

Results

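The genes described here are 49 interferon-stimulated genes and interferon GTPases, chosen by symbol among the 23183 in the count tables of mouse fibrosarcoma tumours. All 49 symbols were found. They were parted by role into 30 antiviral members of the type I response, 12 GTPases known from the interferon-gamma response, 6 transcription factors of the Irf and Stat families and the immunoproteasome subunit *Psmb10*. The low-count filter of the test, a smallest count of 10, passed 47 of them, and *Mx2* and *Tgtp1* did not pass. The rule of choice used symbols and no measured value, but the members were chosen with earlier results of these data known.

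All 6 tumours were of UV2237M, an established line of mouse fibrosarcoma (a cancer that arises from fibroblasts), labelled wild type (WT). The 3 control tumours, here untreated 1, 2 and 3, had no treatment. The 3 others, here treated 1, 2 and 3, were given gold nanoclusters (GNC), very small clusters of gold atoms, at days 1 and 7, and near-infrared (NIR) irradiation. Gold without light and light without gold were not analysed here, so the part of each cannot be told apart. Host strain and age, the time from irradiation to harvest and whether each tumour grew in an animal of its own are not in the labels. The p-values therefore measure the spread between these samples, which may be technical. The series title also names quercetin and docetaxel, which no sample label mentions.

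Interferons are secreted proteins that warn cells of viruses and other microbes. Type I interferons (alpha and beta) act through the receptor chains Ifnar1 and Ifnar2 and the kinases Jak1 and Tyk2, which activate a complex that holds Stat2 and Irf9. That complex binds the interferon-stimulated response element (ISRE) in promoters of antiviral genes. Interferon gamma, made mainly by T and NK cells, acts through Ifngr1 and Ifngr2 and the kinases Jak1 and Jak2, and its signal acts at the gamma-activated site (GAS). Guanylate-binding proteins (Gbp) and immunity-related GTPases (Irgm, Igtp, Iigp, Tgtp) then gather on the vacuoles of intracellular microbes and help to break them. Macrophages in tumours are among the cells in which these genes are inducible.

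Promoter sequences were at hand for 37 of the 49 members, as RefSeq windows of 250 bases before to 50 bases after a start site (build GRCm38.p6, the mm10 assembly). The core of the ISRE was searched as GAAA, 2 bases of any kind and GAAA again, and that of the GAS as TTC, 3 bases of any kind and GAA, on both strands. Both forms are loose, they overlap each other in 2 of the members' windows, and a match is a description of these letters and not a measured site. An ISRE match stood in the windows of 9 of 9 GTPases, 10 of 21 antiviral members and 2 of 6 factors, against 3.71% of the 9460 tested genes with a window. A GAS match stood in 6 of the 9 GTPases, 7 of the 21 antiviral members and 3 of the 6 factors, against 8.36%.

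In 4 GTPase genes of chromosome 11 a GAS match was followed, 2 bases on, by an ISRE match, within nearly the same surrounding letters. A GAS and an ISRE match at most 15 bases apart without overlap were found in 7 of the 37 members, against 11 of 9460 tested genes with a window. The tested genes include the tested members, so the 11 are not an outside rate, and *Tgtp1* was not tested. The first 4 sequences below show this shared arrangement, and the others show the ISRE matches of 2 leading GTPases and of an antiviral gene and the GAS match of *Irf1*. Letters run 5′ to 3′ on the gene's own strand, and capitals mark the matches (GAS before ISRE in the first 4).
*Tgtp1* (chr11:48992306-48992342, minus strand): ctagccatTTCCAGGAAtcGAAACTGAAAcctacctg
*Tgtp2* (chr11:49064265-49064301, minus strand): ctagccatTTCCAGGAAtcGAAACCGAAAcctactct
*Igtp* (chr11:58199503-58199539, plus strand): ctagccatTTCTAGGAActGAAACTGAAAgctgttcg
*Irgm2* (chr11:58214894-58214930, plus strand): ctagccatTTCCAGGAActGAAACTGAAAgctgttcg
*Irgm1* (chr11:48871425-48871454, minus strand): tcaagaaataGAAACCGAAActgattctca
*Gbp2* (chr3:142620594-142620623, plus strand): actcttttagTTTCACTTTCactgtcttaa
*Rsad2* (chr12:26456553-26456582, minus strand): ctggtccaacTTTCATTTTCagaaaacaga
*Irf1* (chr11:53769914-53769942, plus strand): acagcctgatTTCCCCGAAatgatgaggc
The capitals of *Gbp2* and *Rsad2* are the ISRE core read on the opposite strand. *Irgm1* has another, overlapping ISRE match just before the one in capitals. In GENCODE M21 the shown stretches of *Igtp*, *Irf1* and *Rsad2* lie in no annotated gene, and that of *Tgtp2* lies before its own gene, in an intron of *Olfr56* on the other strand. Those of *Tgtp1* and *Irgm2* are intronic in longer transcripts of these genes, that of *Irgm1* is in an exon without coding sequence, and that of *Gbp2* overlaps an annotated 5′ UTR.

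**Figure D1:**
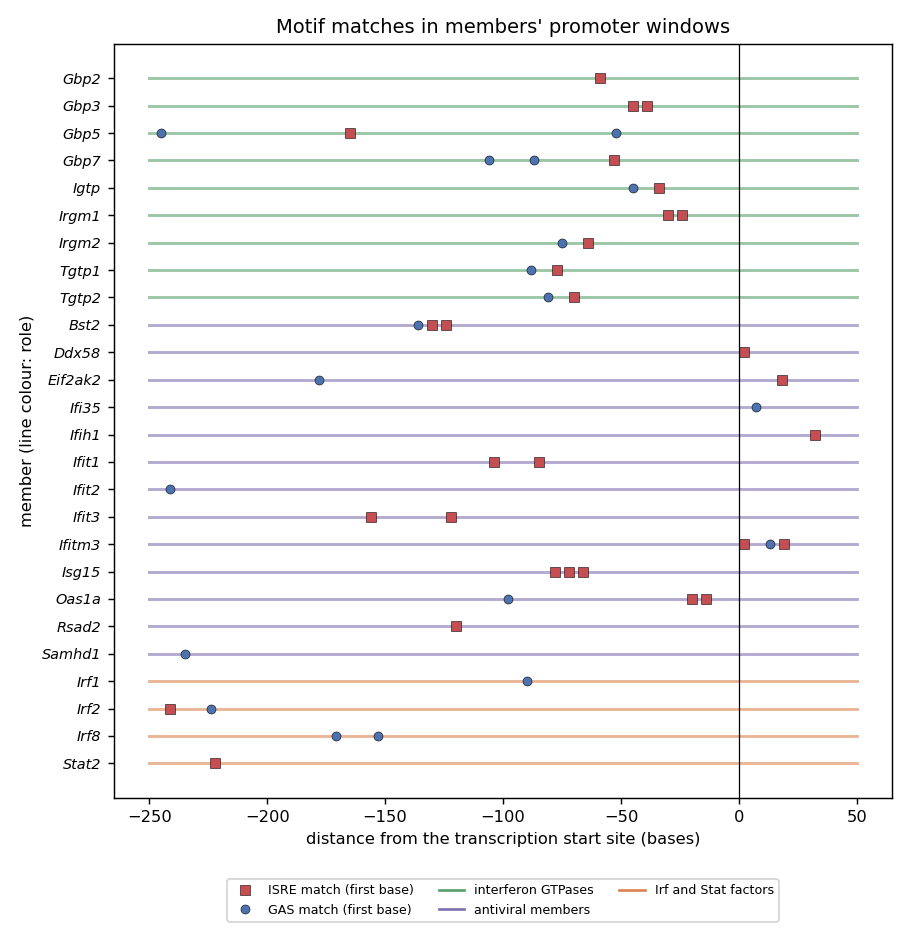
Position of each GAS (circle) and ISRE (square) match, by its first base, relative to the transcription start site at 0, in the 300-base windows of the members that hold a match. Lines are coloured by role. In *Igtp*, *Irgm2*, *Tgtp1* and *Tgtp2* the circle and the square stand side by side between 34 and 88 bases before the start.

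The counts summed to between 4680295 and 8019294 per library, and values are given as CPM, counts scaled to one common library size, always in the order of replicates 1, 2 and 3. Untreated 2 stood apart. Its mean distance to the other libraries was 1.22 on the log2 scale, against 0.611 to 0.729 for the rest, and log2 fold changes are therefore also given without it. The 9 fibroblast markers summed to 24223 to 38995 CPM in untreated and 26949 to 34705 CPM in treated tumours, untreated 2 being lowest in sum and for 6 of the 9. Their median log2 fold change was -0.050, or -0.40 without untreated 2. With 6 libraries 5 lay below 0 and 4 above, from -0.60 to 1.88. At an unadjusted p under 0.05 in edgeR, 0 of the 9 were lower and 1 higher, against 4.85% and 3.32% of all tested genes. Without untreated 2, 3 were lower at that p, against 8.85%. *Col1a1*, the main collagen chain of fibroblasts, was low in untreated 2, with 59.2 CPM against 1971 CPM or more elsewhere. Keratins of skin cells summed to 1009.6 and 542 CPM in untreated 1 and 2, against 3.80 to 57.7 CPM elsewhere.

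The GTPases had lower mean levels in treated than in untreated tumours, the antiviral members were divided, and no member passed the test. All 11 tested GTPases had a log2 fold change below 0, with a median of -0.80, from -1.45 to -0.19. Of the 29 tested antiviral members, 20 lay below 0 and 9 above, with a median of -0.19. Of the 6 factors 5 lay below 0, with a median of -0.20. Over all 12517 tested genes 50.1% lay below 0 and the median was -0.00098. Without untreated 2 it was 10 GTPases, 19 antiviral members and 6 factors that lay below 0, against 49.9% of all tested genes. In bulk tumour RNA, fewer cells of a type and less RNA per cell cannot be told apart.

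With edgeR's quasi-likelihood test and Benjamini-Hochberg adjustment over all tested genes, 0 of the 47 members and 0.0% of all genes passed an adjusted p of 0.05, and the smallest adjusted p of a member was 0.592. DESeq2 called 46 genes (0.368%) and 0 members, with a smallest adjusted p of 0.248 among members. Limma-voom called 0 genes. Without untreated 2, edgeR and DESeq2 again called 0 members, of 0.0% and 2.0% of all genes. At an unadjusted p under 0.05, 5 GTPases, 3 antiviral members and 1 factor were lower, 9 of 47 in all, against 4.85% of all tested genes. In the other direction it was 1 member, *Rsad2*, against 3.32%. Without untreated 2 it was 8 members lower and *Rsad2* higher, against 8.85% and 9.55%. These counts moved with the libraries used, as did those over all genes. Without treated 1, as without treated 3, 1 GTPase and 0 antiviral members were lower at that p and *Rsad2* was not higher. Without untreated 1 the lower GTPases were 3 and *Rsad2* did not reach that p, and without untreated 3 the lower antiviral members were 5. The factor, *Irf1*, did not reach that p when any 1 treated library was left out. Over all tested genes the number at that p, in either direction, was 1023 of 12517 with 6 libraries. It was 574 of 12988 without treated 1, 853 of 12731 without treated 2 and 313 of 12677 without treated 3. It was 812 of 12800 without untreated 1 and 1687 of 12766 without untreated 3.

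The 3 treated values lay below each untreated value in 5 of 11 GTPases, 5 of 29 antiviral members and 2 of 6 factors, against 10.2% of all tested genes. They lay above each untreated value in 1 member of 47, against 10.6%. Without untreated 2 the counts below were 5, 5 and 5, against 19.6%. The medians without untreated 2 were -0.62 for GTPases, -0.17 for antiviral members and -0.31 for factors. Untreated 2 was the highest of the 6 libraries for 11 of 11 tested GTPases, 18 of 29 antiviral members and 2 of 6 factors, against 37.3% of all tested genes. It was the lowest for 12 of 47 members, against 39.6%. Untreated 2 also differed from the rest along GC content, and with GC content and length corrected the GTPase median was -0.69.

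**Figure D2:**
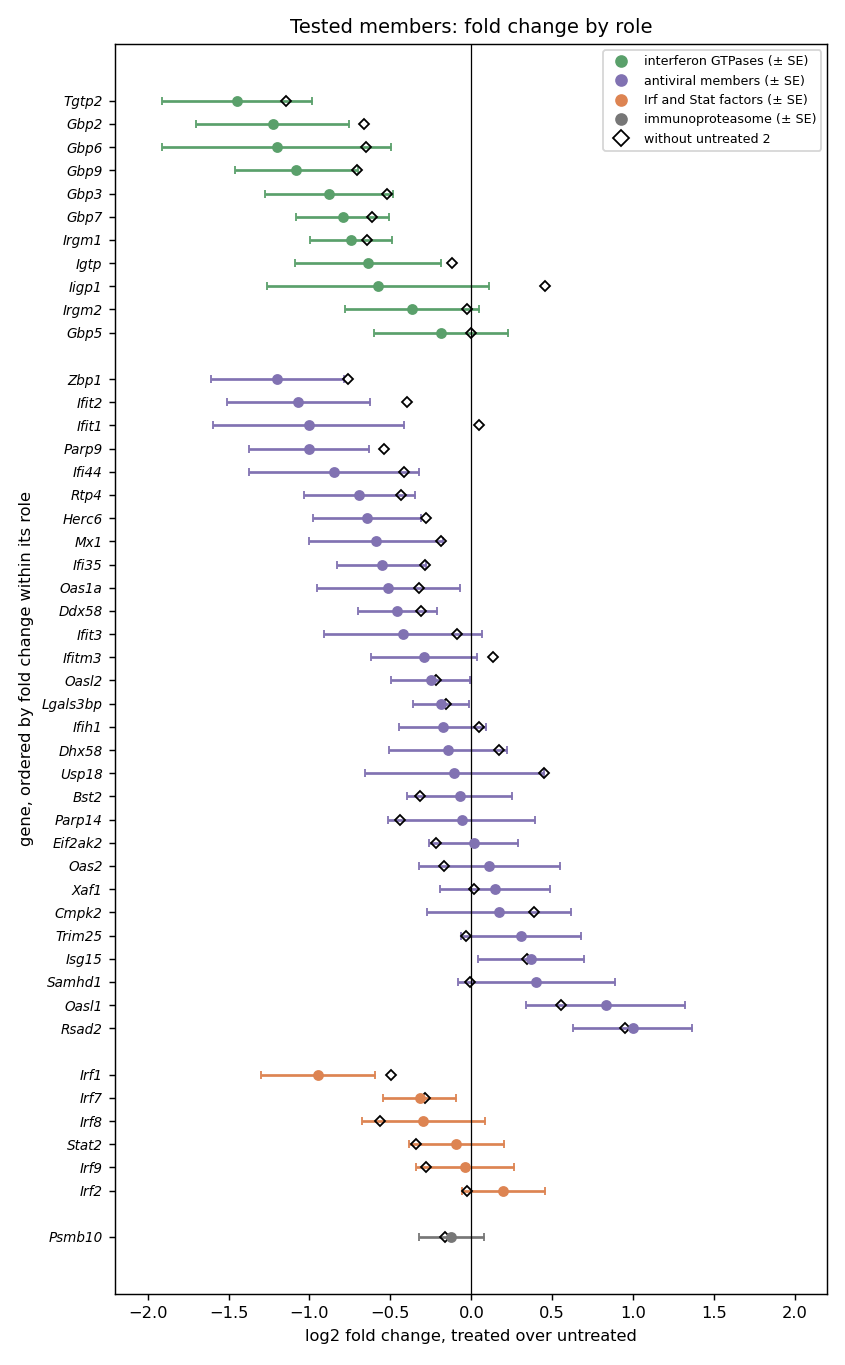
Log2 fold change (horizontal axis) of each tested member, treated over untreated, by role, with filled points and bars for the estimate ± SE over 6 libraries and open diamonds for the estimate without untreated 2. All 11 GTPases lie left of 0 with 6 libraries, and the diamond of *Iigp1* lies right of it.

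Among the immunity-related GTPases, *Irgm1* (chromosome 11, 48861968 to 48871683, minus strand, mm10) had the highest level per length. It codes for a regulator that holds the other GTPases off the cell's own membranes. *Irgm1* stood at 63.8, 70.6 and 51.7 CPM in the untreated tumours and at 35.3, 47.4 and 28.4 CPM in the treated ones. The groups did not overlap, and treated 3 was lowest. The log2 fold change was -0.74 ± 0.25 (-0.64 without untreated 2). *Tgtp2* (chromosome 11, 49057194 to 49064206), an effector GTPase, stood at 5.43, 7.57 and 3.18 CPM in the untreated tumours and at 2.32, 2.31 and 1.24 CPM in the treated ones. Here too each treated value lay below each untreated one, and the log2 fold change, -1.45 ± 0.46 (-1.14 without untreated 2), was the lowest of all tested members with 6 libraries. *Tgtp1* had 4, 5 and 5 counts in the untreated tumours and 3, 7 and 4 counts in the treated ones, too few for the test.

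*Tgtp1* and *Tgtp2* are near-identical, with 99.8% identity over 2810 aligned bases of their longest transcripts, and counting can split reads between them. Their summed level was 6.04, 8.68 and 3.79 CPM in the untreated tumours against 2.85, 3.26 and 1.74 CPM in the treated, again without overlap. In the sum, as in *Tgtp2* alone, untreated 2 was highest and treated 3 lowest. *Tgtp1* also shares its span with *Gm12185* on the same strand, and both lie within that of *Olfr56* on the other strand. The strand setting of the counting is not given.

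*Irgm2* and *Igtp* (also called Irgm3) are the other regulators. *Irgm2* stood at 6.04, 11.1 and 5.997 CPM in the untreated tumours and at 3.39, 7.06 and 7.19 CPM in the treated ones. *Igtp* stood at 5.73, 12.2 and 4.65 CPM in the untreated tumours and at 3.39, 4.89 and 5.95 CPM in the treated ones. The groups overlapped in both. Their log2 fold changes were -0.37 ± 0.42 (-0.025 without untreated 2) and -0.64 ± 0.45 (-0.12 without untreated 2). The annotated spans of the pair share 7974 bases of chromosome 11 on the same strand, so their counts are uncertain. *Iigp1* (also called Irga6), an effector that coats vacuoles, stood at 4.68, 16.7 and 3.18 CPM in the untreated tumours and at 2.68, 5.70 and 7.57 CPM in the treated ones. Its untreated value rested on untreated 2, and its log2 fold change of -0.57 ± 0.69 was 0.45 without that library.

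Among the guanylate-binding proteins, large GTPases that help to open microbial vacuoles, *Gbp2* (chromosome 3, 142620602 to 142638008, plus strand) had the highest level per length. *Gbp2* stood at 40.4, 91.1 and 33.8 CPM in the untreated tumours and at 18.6, 35.4 and 16.3 CPM in the treated ones. Treated 2 lay above untreated 3, so the groups overlapped. Its mean difference was -1.23 ± 0.47 (-0.66 without untreated 2) on the log2 scale. *Gbp9* (chromosome 5, 105077630 to 105139539) stood at 16.1, 26.5 and 11.4 CPM in the untreated tumours and at 7.49, 11.1 and 6.70 CPM in the treated ones, without overlap. On the log2 scale the difference was -1.08 ± 0.38 (-0.70 without untreated 2). Its span overlaps *Gbp4* and *Gbp8* on the same strand, so its counts are uncertain. *Gbp7* and *Gbp3* are neighbours of *Gbp2* on chromosome 3. *Gbp7* stood at 21.1, 25.4 and 14.9 CPM in the untreated tumours and at 9.28, 14.1 and 11.8 CPM in the treated ones. *Gbp3* stood at 11.6, 20.3 and 10.04 CPM in the untreated tumours and at 4.64, 9.91 and 7.94 CPM in the treated ones. Neither overlapped between the groups, though treated 2 lay close under untreated 3 in both. Their log2 fold changes were -0.80 ± 0.29 (-0.62 without untreated 2) and -0.88 ± 0.40 (-0.52 without untreated 2).

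*Gbp6* and *Gbp5*, a protein known to promote inflammasome assembly, had low counts and overlapped between the groups. *Gbp6* stood at 2.72, 4.90 and 1.22 CPM in the untreated tumours and at 0.535, 0.814 and 2.23 CPM in the treated ones, and *Gbp5* ranged over 1.66 to 2.67 CPM in untreated and 1.25 to 2.11 in treated tumours. Their log2 fold changes were -1.20 ± 0.71 (-0.65 without untreated 2) and -0.19 ± 0.41 (-0.0022 without untreated 2). *Gbp6* shares 98.5% of 2582 aligned bases with *Gbp10*, so its counts are uncertain too. Summed over the 12 GTPases, the level was 143 to 290.1 CPM in untreated and 89.4 to 142 CPM in treated tumours. Untreated 3, at 143 CPM, lay next to treated 2, at 142 CPM, so the separation of the groups was narrow.

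**Figure D3:**
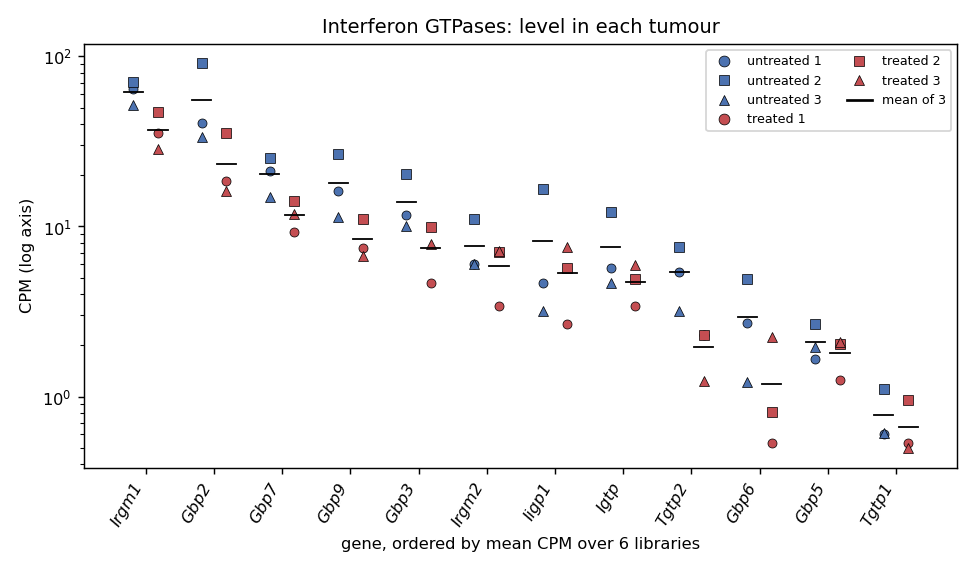
CPM (log axis) of the 12 GTPases in each of the 3 untreated (blue) and 3 treated (red) tumours, with symbols for the replicate number and bars for the mean of 3. Untreated 2 (blue square) is the highest point for each gene, and *Irgm1* and *Gbp2* have the highest CPM.

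Markers of macrophages also had lower mean levels in treated tumours. Of 7 macrophage markers 6 had a log2 fold change below 0, with a median of -0.80, or -0.67 without untreated 2. Their summed level was 1021 to 2246 CPM in untreated and 590.1 to 1183 CPM in treated tumours, where treated 2 lay above untreated 1. None of the 7 was at 0 in any library. *Csf1r*, the receptor that macrophages need to survive, stood at 204, 177 and 185 CPM in the untreated tumours and at 66.4, 130.2 and 93.9 CPM in the treated ones, without overlap. Treated values lay below each untreated value in 4 of the 7 markers, against 10.2% of all tested genes. Untreated 2 was the highest library for 5 of the 7, against 37.3%, but not for *Csf1r*. The median log2 level relative to the untreated mean was -0.31, 0.58 and -0.038 in the untreated and -1.24, -0.51 and -0.70 in the treated tumours for macrophage markers. For GTPases it was -0.19, 0.59 and -0.53 in the untreated and -1.07, -0.47 and -0.72 in the treated tumours. Both were highest in untreated 2 and lowest in treated 1. The same held for the antiviral members and for other interferon-stimulated genes outside the list, so this order was not particular to GTPases and macrophage markers. *Ptprc* (CD45), a marker of all leukocytes, stood at 44.2, 111 and 50.8 CPM in the untreated tumours and at 26.4, 42.9 and 32.4 CPM in the treated ones, also without overlap. The part of these cells in the GTPase values was not tested.

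Of the antiviral members, the Ifit proteins bind viral RNA that lacks the cell's own cap marks. *Ifit2* (chromosome 19, 34550694 to 34576419, plus strand) stood at 70.8, 173 and 52.3 CPM in the untreated tumours and at 48.9, 49.5 and 42.3 CPM in the treated ones. The groups did not overlap, and untreated 2 held more than its 2 partners together. Its log2 fold change was -1.07 ± 0.44 (-0.40 without untreated 2), so the value rested mostly on that library. *Ifit1* stood at 15.1, 59.00 and 12.4 CPM in the untreated tumours and at 12.8, 15.2 and 14.5 CPM in the treated ones. The 5 libraries other than untreated 2 lay between 12.4 and 15.2 CPM, and the log2 fold change was -1.01 ± 0.59 (0.046 without untreated 2). *Ifit3*, which shares 98.00% of 1697 aligned bases with *Ifit3b* and is uncertain for that reason, stood at 6.04, 7.79 and 2.57 CPM in the untreated tumours and at 2.50, 4.75 and 4.71 CPM in the treated ones. The groups overlapped, with -0.42 ± 0.49 (-0.086 without untreated 2) on the log2 scale.

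*Rsad2* (chromosome 12, 26442746 to 26456452, minus strand) stood on the other side. It codes for viperin, a radical SAM enzyme that makes a chain-terminating nucleotide. *Rsad2* stood at 4.83, 7.35 and 10.9 CPM in the untreated tumours and at 14.5, 11.8 and 19.97 CPM in the treated ones, so that each treated value lay above each untreated one. The log2 fold change of *Rsad2* was 0.996 ± 0.37 (0.95 without untreated 2). Its neighbour *Cmpk2*, a mitochondrial nucleotide kinase, overlapped between the groups, with 2.87 to 6.23 CPM in untreated and 3.80 to 7.94 in treated tumours, a log2 fold change of 0.17 ± 0.44 (0.39 without untreated 2). *Oasl1* and *Isg15*, a ubiquitin-like protein that is joined to other proteins, had the next smallest p among antiviral members above 0. *Oasl1*, which dampens translation of *Irf7*, stood at 3.17, 1.78 and 4.90 CPM in the untreated tumours and at 3.21, 6.51 and 8.06 CPM in the treated ones. *Isg15* stood at 6.04, 4.68 and 3.92 CPM in the untreated tumours and at 5.35, 5.43 and 8.06 CPM in the treated ones. Both overlapped between the groups, with log2 fold changes of 0.83 ± 0.49 (0.55 without untreated 2) and 0.37 ± 0.33 (0.34 without untreated 2). *Usp18*, the protease that removes Isg15 and dampens the type I receptor, had 1.59 to 4.90 CPM in untreated and 1.43 to 3.39 in treated tumours, with -0.11 ± 0.55 (0.45 without untreated 2) on the log2 scale. *Herc6*, the mouse ligase that joins Isg15 to proteins, had 13.95 to 28.5 CPM in untreated and 10.3 to 15.1 in treated tumours, with a log2 fold change of -0.64 ± 0.33 (-0.28 without untreated 2).

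The oligoadenylate synthetases make the messenger that switches on RNase L. *Oas1a*, *Oas2* and their relative *Oasl2* overlapped between the groups, with log2 fold changes of -0.51 ± 0.44 (-0.33 without untreated 2), 0.11 ± 0.44 (-0.17 without untreated 2) and -0.25 ± 0.25 (-0.22 without untreated 2). *Oas1a* stood at 2.11, 4.01 and 3.30 CPM in the untreated tumours and at 1.78, 3.12 and 1.61 CPM in the treated ones. *Oas2* ranged over 3.12 to 7.34 CPM in untreated and 3.92 to 8.55 in treated tumours and *Oasl2* over 13.5 to 15.6 CPM in untreated and 9.63 to 14.6 in treated tumours. *Oas1a* shares 97.5% of 1860 aligned bases with *Oas1g*, which makes its counts uncertain. The dynamin-like GTPases Mx1 and Mx2, where functional, block viral ribonucleoproteins. GENCODE M21 lists *Mx2* as a polymorphic pseudogene, a gene that is intact in some genomes and not in others. *Mx1* had 3.43 to 8.24 CPM in untreated and 2.85 to 3.94 in treated tumours, with a log2 fold change of -0.59 ± 0.41 (-0.18 without untreated 2). *Mx2*, which was not tested, had 9, 14 and 10 counts in the untreated tumours and 2, 9 and 7 counts in the treated ones. As CPM, treated 2 was level with untreated 3, at 1.22, and the other treated tumours lay lower.

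Sensors of viral nucleic acid start the response. *Zbp1* (chromosome 2, 173206612 to 173218923, minus strand), a sensor of Z-form nucleic acid that can start necroptosis, stood at 12.5, 20.7 and 7.22 CPM in the untreated tumours and at 5.71, 6.65 and 5.09 CPM in the treated ones. The groups did not overlap, and its log2 fold change, -1.20 ± 0.41 (-0.76 without untreated 2), was the lowest of the antiviral members. *Ddx58* (RIG-I), *Ifih1* (MDA5) and *Dhx58* (LGP2), the helicases that detect viral RNA, overlapped between the groups. Their log2 fold changes were -0.46 ± 0.25, -0.18 ± 0.27 and -0.14 ± 0.36, and -0.31, 0.047 and 0.17 without untreated 2. *Ddx58* ranged over 54.2 to 79.5 CPM in untreated and 41.1 to 60.3 in treated tumours, *Ifih1* over 9.30 to 15.8 CPM in untreated and 10.45 to 11.1 in treated tumours and *Dhx58* over 5.43 to 9.80 CPM in untreated and 4.46 to 7.33 in treated tumours. *Trim25*, the ligase that helps to activate RIG-I, stood at 20.9 CPM in untreated 2, against 51.4 to 58.3 CPM elsewhere, with a log2 fold change of 0.31 ± 0.37 (-0.031 without untreated 2). *Eif2ak2* (PKR), a kinase that stops translation when it binds double-stranded RNA, ranged over 32.7 to 63.5 CPM in untreated and 45.1 to 55.8 in treated tumours, with 0.014 ± 0.28 (-0.22 without untreated 2) on the log2 scale.

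*Parp9* (chromosome 16, 35938470 to 35972605, plus strand), a partner of the ubiquitin ligase Dtx3l, stood at 50.6, 97.5 and 40.1 CPM in the untreated tumours and at 28.01, 39.5 and 26.1 CPM in the treated ones. The groups did not overlap, with a log2 fold change of -1.004 ± 0.37 (-0.54 without untreated 2). Its span shares 682 bases with *Dtx3l* on the other strand. *Parp14*, its relative in the same gene cluster, stood at 70.02, 18.9 and 57.6 CPM in the untreated tumours and at 37.8, 57.8 and 45.4 CPM in the treated ones. Untreated 2 was the lowest library for *Parp14* and the highest for *Parp9*. The log2 fold change of *Parp14* was -0.060 ± 0.45 (-0.44 without untreated 2).

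*Ifitm3* (chromosome 7, 141009586 to 141010770, minus strand), a membrane protein that blocks viral fusion, had the highest level per length of all members and stood at 191, 436 and 231 CPM in the untreated tumours and at 229.8, 234 and 236 CPM in the treated ones. The 3 treated values lay within a narrow range, inside the wide untreated one, and the log2 fold change was -0.29 ± 0.33 (0.14 without untreated 2). *Samhd1* (chromosome 2, 157097533 to 157135265, minus strand), which depletes the nucleotides that viruses need, stood at 88.3, 26.1 and 111 CPM in the untreated tumours and at 82.95, 111 and 105 CPM in the treated ones. Untreated 2 was its lowest library, and its log2 fold change was 0.40 ± 0.48 (-0.0082 without untreated 2). *Bst2* (tetherin), which holds budding virus on the cell surface, had 7.35 to 14.7 CPM in untreated and 9.81 to 13.8 in treated tumours, with a log2 fold change of -0.072 ± 0.32 (-0.32 without untreated 2).

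Of the other antiviral members, *Ifi35* and *Lgals3bp* did not overlap between the groups. *Ifi35* had 16.2 to 27.6 CPM in untreated and 12.3 to 14.7 in treated tumours, with a log2 fold change of -0.55 ± 0.27 (-0.29 without untreated 2). *Lgals3bp*, a secreted glycoprotein, had 60.8 to 69.2 CPM in untreated and 56.9 to 58.5 in treated tumours, with -0.19 ± 0.17 (-0.15 without untreated 2) on the log2 scale. *Rtp4*, a chaperone of receptors, *Ifi44* and *Xaf1*, a partner of the apoptosis inhibitor Xiap, overlapped between the groups. *Rtp4* ranged over 6.36 to 12.02 CPM in untreated and 4.71 to 6.92 in treated tumours, *Ifi44* over 1.22 to 3.79 CPM in untreated and 0.992 to 1.49 in treated tumours and *Xaf1* over 2.89 to 4.53 CPM in untreated and 3.21 to 4.47 in treated tumours. Their log2 fold changes were -0.69 ± 0.34 (-0.43 without untreated 2), -0.85 ± 0.52 (-0.41 without untreated 2) and 0.15 ± 0.34 (0.017 without untreated 2). Summed over the 30 antiviral members, the level was 868 to 1207 CPM in untreated and 750.0 to 880.3 CPM in treated tumours, and the groups overlapped.

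**Figure D4:**
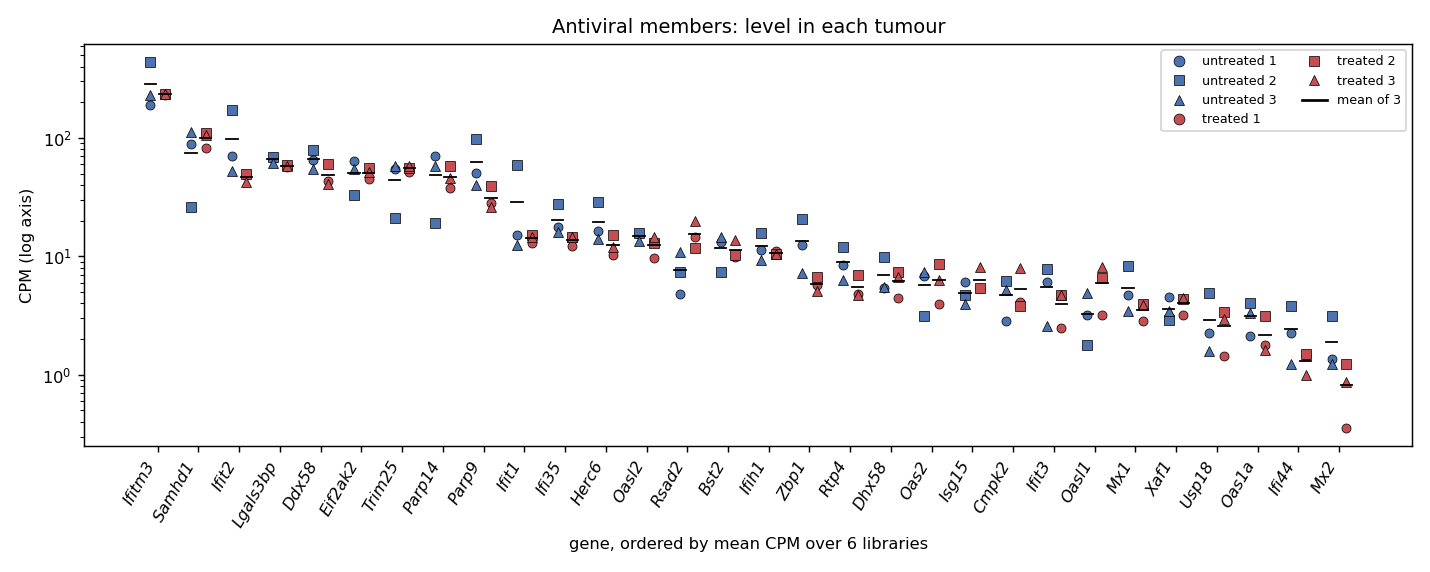
CPM (log axis) of the 30 antiviral members in each tumour, untreated in blue and treated in red, with symbols for the replicate number and bars for the mean of 3. *Ifitm3* has the highest CPM, *Rsad2* has the 3 treated points above the untreated ones, and for *Samhd1*, *Trim25* and *Parp14* untreated 2 is the lowest point.

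Among the transcription factors, *Irf1* (chromosome 11, 53770014 to 53778374, plus strand), an activator of the response to interferon gamma, had the highest level per length. *Irf1* stood at 134, 267 and 119 CPM in the untreated tumours and at 93.1, 104 and 72.1 CPM in the treated ones. The groups did not overlap, with 89.8 ± 16.3 CPM in treated against 173 ± 81.4 in untreated tumours (SD, n = 3). Its log2 fold change was -0.95 ± 0.35 (-0.50 without untreated 2), and untreated 2 gave most of the spread. *Irf7*, the factor that amplifies type I interferon genes, did not overlap either. It stood at 12.5, 14.2 and 13.7 CPM in the untreated tumours and at 9.28, 11.9 and 11.2 CPM in the treated ones, with a log2 fold change of -0.32 ± 0.22 (-0.28 without untreated 2). *Irf8*, a factor of macrophages and dendritic cells, stood at 15.2, 6.90 and 13.8 CPM in the untreated tumours and at 7.31, 13.3 and 8.81 CPM in the treated ones. It overlapped through its low value in untreated 2, and its log2 fold change was -0.30 ± 0.38 (-0.57 without untreated 2). *Irf2*, which competes with Irf1 for the same sites, stood at 39.99, 24.05 and 43.6 CPM in the untreated tumours and at 41.7, 43.02 and 39.1 CPM in the treated ones. On the log2 scale *Irf2* differed by 0.20 ± 0.26 (-0.025 without untreated 2).

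*Stat2* and *Irf9*, which are parts of the type I complex, had their lowest value in untreated 2, with 19.4 and 8.68 CPM. *Stat2* ranged over 19.4 to 39.1 CPM in untreated and 25.2 to 33.4 in treated tumours, and *Irf9* over 8.68 to 16.3 CPM in untreated and 11.4 to 15.01 in treated tumours. Their log2 fold changes were -0.095 ± 0.29 (-0.34 without untreated 2) and -0.041 ± 0.30 (-0.28 without untreated 2). *Irf9* overlaps *Rnf31* on the same strand, so its counts are uncertain. Without untreated 1 the median of the 6 factors was -0.0096, with 3 below 0. *Psmb10*, a catalytic subunit of the immunoproteasome that trims antigens for display, stood at 29.3, 27.2 and 29.1 CPM in the untreated tumours and at 23.9, 31.1 and 23.6 CPM in the treated ones. The groups overlapped, with a log2 fold change of -0.12 ± 0.20 (-0.16 without untreated 2).

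Levels can be compared between genes only per length, here as mean CPM over 6 libraries per kilobase of the longest transcript. On that scale *Ifitm3* led with 383, followed by *Irf1* with 61.5, *Lgals3bp* with 26.5, *Samhd1* with 22.3 and *Psmb10* with 20.9. *Gbp2* (15.6) and *Irgm1* (12.9) were the leading GTPases, and the other 10 GTPases had 4.002 or less, down to 0.254 for *Tgtp1*. Of the antiviral members, *Ifit2* (19.1) lay above *Gbp2* and *Ddx58* (14.8) close under it, while *Isg15* (7.38), *Rsad2* (2.76), *Mx1* (1.33) and *Oas1a* (1.41) lay lower.

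The interferons themselves were hardly detected. Of 21 interferon genes 16 had no count in any library, and none passed the filter. *Ifng* had 1, 1 and 0 counts in the untreated tumours and 0, 0 and 0 counts in the treated ones, and *Ifnb1* had 0, 1 and 0 counts in the untreated tumours and 0, 1 and 0 counts in the treated ones. A count of 0 allows up to 3 counts, or 0.367 to 0.668 CPM depending on the library. *Ifna13* and *Ifnz* had no more than 1 count in a library, and *Ifnk*, which keratinocytes are known to make, had 10, 0 and 8 counts in the untreated tumours and 1, 8 and 2 counts in the treated ones.

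The type I and gamma receptors had counts in all 6 tumours. *Ifngr1*, the ligand-binding chain for interferon gamma, stood at 43.5, 82.4 and 39.7 CPM in the untreated tumours and at 31.4, 35.2 and 29.3 CPM in the treated ones, without overlap, a log2 fold change of -0.78 ± 0.31 (-0.38 without untreated 2). *Ifngr2*, *Ifnar1*, *Ifnar2* and *Il10rb* overlapped between the groups, with log2 fold changes of -0.25 ± 0.30 (0.12 without untreated 2), -0.075 ± 0.27 (-0.28 without untreated 2), -0.0052 ± 0.23 (-0.17 without untreated 2) and -0.31 ± 0.22 (-0.29 without untreated 2). The lambda receptor chain *Ifnlr1* had 6 counts or fewer in each library and was not tested. The receptor kinases *Jak1*, *Jak2* and *Tyk2* had log2 fold changes of 0.15 ± 0.18 (0.16 without untreated 2), -0.21 ± 0.25 (0.014 without untreated 2) and -0.18 ± 0.20 (-0.27 without untreated 2). *Jak1* lay between 278 and 297 CPM in untreated and between 300.4 and 334 CPM in treated tumours, without overlap.

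Of 94 further genes of the pathway, 63 were tested. With edgeR's quasi-likelihood test and Benjamini-Hochberg adjustment over all genes, 0 passed in either direction, and DESeq2 called 0. At an unadjusted p under 0.05, 4 were lower and 2 higher, against 4.85% and 3.32% of all tested genes. *Socs3*, a feedback inhibitor of Jak kinases that interleukin 6 also induces, stood at 37.6, 38.3 and 63.9 CPM in the untreated tumours and at 73.1, 90.3 and 129.8 CPM in the treated ones. The groups did not overlap, with 1.07 ± 0.32 (0.94 without untreated 2) on the log2 scale. *Pias1*, an inhibitor of the pathway, ranged over 42.6 to 78.2 CPM in untreated and 39.8 to 42.8 in treated tumours, with -0.43 ± 0.27 (-0.13 without untreated 2) on the log2 scale. Of 13 genes of nucleic acid sensing 10 lay below 0. *Tlr7* and *Tlr3*, endosomal sensors of RNA, differed by -1.13 ± 0.46 (-0.62 without untreated 2) and -0.75 ± 0.48 (-0.32 without untreated 2) on the log2 scale. *Tlr7* ranged over 11.99 to 29.6 CPM in untreated and 4.64 to 10.45 in treated tumours and *Tlr3* over 7.59 to 18.7 CPM in untreated and 4.46 to 11.4 in treated tumours.

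Of the 35 tested among 44 other interferon-stimulated genes, 24 lay below 0, with a median log2 fold change of -0.35, or -0.10 over 37 tested without untreated 2. *Uba7*, the enzyme that activates Isg15, stood at 58.3, 71.9 and 47.1 CPM in the untreated tumours and at 29.1, 38.8 and 26.1 CPM in the treated ones. *Ifi47*, another immunity-related GTPase, stood at 51.8, 124 and 35.7 CPM in the untreated tumours and at 24.4, 30.5 and 15.8 CPM in the treated ones. Neither overlapped between the groups, and the log2 fold changes were -0.91 ± 0.25 (-0.75 without untreated 2) and -1.57 ± 0.50 (-0.90 without untreated 2).

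Defining markers of T cells were at or near 0. *Cd3e* had no count in any library, *Cd3d* and *Cd3g* had at most 0.178 CPM, and the 6 T cell markers found summed to 2.004 to 6.49 CPM in untreated and 0.714 to 3.23 CPM in treated tumours, mostly *Cd4*. The 5 NK markers summed to 1.36 to 2.67 and 0.357 to 1.63 CPM, and none of them passed the filter. Of 3 markers of plasmacytoid dendritic cells, *Siglech* and *Ccr9* had at most 1.36 CPM. The third, *Tcf4*, which other cell types also express, stood at 741, 957 and 535 CPM in the untreated tumours and at 421, 392 and 250.2 CPM in the treated ones, without overlap, with -1.07 ± 0.31 (-0.85 without untreated 2) on the log2 scale. The 5 neutrophil markers summed to 13.4 to 41.7 CPM in untreated and 34.3 to 83.7 CPM in treated tumours. Treated 1 and 3, where the neutrophil sum was highest, held the 2 lowest GTPase sums, 89.4 and 97.9 CPM. The other libraries did not keep this inverse order. Untreated 2 had a higher neutrophil sum than untreated 1 and also the highest GTPase sum. Untreated 3 had a higher neutrophil sum than treated 2, with a nearly equal GTPase sum. The part of neutrophils in these values was not tested either.

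**Figure D5:**
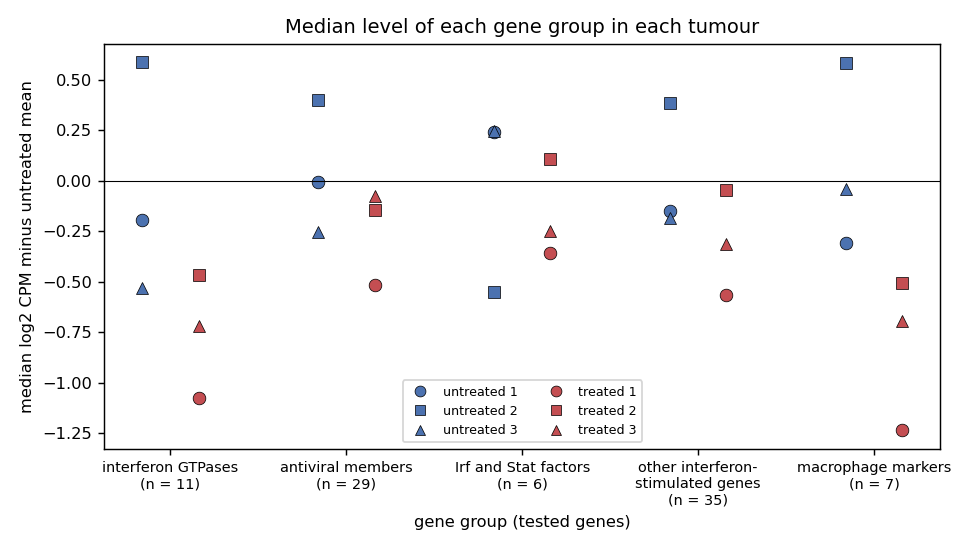
Median log2 CPM over the tested genes of a group, minus the mean of the untreated tumours for each gene, in each of the 3 untreated (blue) and 3 treated (red) tumours. Each group except the 6 factors has untreated 2 as the highest and treated 1 as the lowest point, while for the factors untreated 2 is the lowest.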

How the data were processed

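Whole-tumour RNA of 6 samples was sequenced, and groups follow the sample titles. Per the labels' protocols, RNA came from Trizol extraction and a directional kit (NEBNext Ultra II) was used for the libraries. TopHat and mm10 stand in the submitters' processing notes, and how reads were counted, with which annotation and strand setting, was not stated there. The authors deposited 1 table of raw counts per sample by gene symbol.

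Genes were filtered with filterByExpr (smallest count 10), which kept 12517, scaled by TMM (factors 0.96 to 1.02) and compared with edgeR 4.0.16 (glmQLFit and glmQLFTest, 2-sided, R 4.3.3), with Benjamini-Hochberg adjustment over all tested genes. An SE is the log2 fold change divided by the root of F. DESeq2 1.42.0 and limma 3.58.1 were alternatives, with other scalings and filters, the replicate number as a block, each library left out, and a loess trend on GC content and log10 length removed per library (GENCODE M21, 99.4% of tested genes). DESeq2 without untreated 2 was chosen after seeing the data. The edgeR fit was also run on simulated counts with known changes. Its outcome is not given here, so how many real changes the test would miss is not stated. Every pair of libraries differed by more than sampling noise (chi-square per gene of 5.64 or more, where noise alone gives about 1).

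The members and lists were chosen with earlier results of these data known, so no test over a list was made. Values in every library are given for the 3 members of each role with the smallest p in each direction, for the 2 with the highest CPM and for members with a near-identical copy. Of further pathway genes, ligands, receptors and Jak kinases are named (1 gene of the list is not reported here), and the 2 with the smallest p in each other role. Positions are those of GENCODE M21 on mm10.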

Additional observations from a re-analysis of the deposited data

How the results depend on the processing

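No tested member with an adjusted p was called under any of the 15 alternatives. DESeq2 without untreated 2 gave none for 5 members, and the filter at a mean of 5 CPM tested 22 antiviral members and 8 GTPases. Over all genes, edgeR called 0 as reported, DESeq2 called 17 higher and 29 lower (46), DESeq2 without untreated 2 called 257, and edgeR called 0 to 4 with 1 library left out. The 162 values of single GTPases lay below 0 in 160, the exceptions being *Iigp1* in both fits without untreated 2. The fits share genes and libraries, so these values are not independent of each other. With 1 library left out the median was -0.98 to -0.62 for GTPases, -0.34 to -0.17 for antiviral members and -0.31 to -0.0096 for factors. With GC and length corrected it was -0.69, -0.26 and -0.31. Of 47 tested members 31 kept their direction throughout. The values that changed sign were, in DESeq2 without untreated 2 (chosen after seeing the data), 0.048 for *Ifit1*, -0.17 for *Oas2*, 0.45 for *Usp18*, 0.048 for *Ifih1*, 0.17 for *Dhx58*, -0.031 for *Trim25*, 0.14 for *Ifitm3*, -0.0084 for *Samhd1*, -0.22 for *Eif2ak2*, 0.45 for *Iigp1*, -0.026 for *Irf2*. With limma-voom they were 0.054 for *Usp18*, 0.11 for *Parp14*, with upper quartile scaling -0.014 for *Eif2ak2*, and with DESeq2 -0.00058 for *Eif2ak2*. The ranges with 1 library left out, for members that crossed 0, were -1.38 to 0.046 for *Ifit1*, -0.17 to 0.35 for *Oas2*, -0.42 to 0.45 for *Usp18*, -0.34 to 0.047 for *Ifih1*, -0.30 to 0.17 for *Dhx58*, -0.32 to 0.12 for *Bst2*, -0.031 to 0.55 for *Trim25*, -0.44 to 0.28 for *Parp14*, -0.53 to 0.14 for *Ifitm3*, -0.26 to 0.39 for *Cmpk2*, -0.0082 to 0.80 for *Samhd1*, -0.22 to 0.21 for *Eif2ak2*, -0.98 to 0.45 for *Iigp1*, -0.025 to 0.36 for *Irf2*, -0.28 to 0.10 for *Irf9*, -0.34 to 0.094 for *Stat2*. The cause was not tested.

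With the replicate number as a block, edgeR called 0 genes and 0 members, with 988 genes at an unadjusted p under 0.05 against 1023, and the values were 0.086 for *Parp14*, 0.0034 for *Irf9*. The labels do not say that a number marks a pair, and the correlations of same-numbered libraries were -0.182, -0.110 and 0.108. At these depths 1 count is a large step for *Tgtp1*, *Mx2* and the ligands.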

Other observations

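The members' levels in untreated 2 were set beside the base composition of their transcripts. The GC content of the longest transcript had a median of 45.6% over the tested GTPases, 48.95% over the antiviral members and 51.8% over the factors, against 49.7% over tested genes with a value. The level in untreated 2 relative to the mean of the other 5 libraries had a median of 1.23 (log2) over GTPases, 0.58 over antiviral members and -0.71 over factors, against -0.058 over all. Across the 47 tested members the Pearson correlation of GC content and this level was -0.39, and across 12438 tested genes -0.46. Within roles it was -0.29 over 29 antiviral members and -0.46 over 11 GTPases. Whether base composition accounts for these levels was not tested. Genes are not independent replicates and share the library, so this is a description. *Parp9* and *Parp14*, neighbours that untreated 2 set apart in opposite directions, had 47.5% and 46.3% GC, where the members ranged from 39.3% to 56.5%. A pair picked in this way does not describe the trend across genes.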
